A study of Mus musculus with 9 samples.

Results

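The 40 genes described here encode subunits of the Polycomb and Trithorax chromatin complexes, chosen by gene symbol, and all 40 were found among the 40213 symbols of the count tables. They were grouped by complex as 6 core and 6 accessory subunits of Polycomb repressive complex 2 (PRC2), 2 E3 ligases, 9 canonical and 8 variant subunits of Polycomb repressive complex 1 (PRC1), 6 KMT2 complex subunits and 3 histone demethylases. RNA-seq of total RNA covered 9 libraries from embryonic stem (ES) cells of the mouse, kept in ES medium with LIF, the cytokine that sustains self-renewal. The control group was J1, an ES line in common use, with 3 libraries. The other groups were stable lines named Niwa in the labels, 3 libraries of an OCT4 line and 3 of an EWS-OCT4 line, in which OCT4 is fused to EWS, an RNA-binding protein. Doxycycline at 1 µg/ml was applied to both stable lines to reduce endogenous OCT4, and the title of the series asks whether the fusion can stand in for OCT4 in self-renewal. The labels do not give the promoter or species of the introduced OCT4, the parental line, whether each stable line is 1 clone, or whether J1 received doxycycline. They also do not say whether the numbered libraries came from separate cultures, so the p-values given here cover the spread among libraries alone, and that spread may be technical. Effects of the construct and of the parental line cannot be told apart in comparisons with J1.

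Polycomb proteins keep developmental genes silent. PRC2 methylates lysine 27 of histone H3, and PRC1 adds ubiquitin to histone H2A, in canonical complexes recruited through CBX proteins that bind the PRC2 mark and in variant complexes recruited independently of it. The Trithorax-related KMT2 (MLL) complexes methylate lysine 4 of histone H3 at active promoters and enhancers, and in ES cells many developmental genes carry both marks.

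Library totals lay between 21149358 and 24786305 counts, and levels are given as CPM (counts per 1000000 counts of the library), on totals scaled by TMM factors, a correction for differences in RNA composition. Between replicates, the chi-square of the counts divided by its degrees of freedom was 3.21 to 29.2, more than counting noise gives. Pou5f1, which encodes OCT4 and is the gene the treatment lowers, read 522, 639 and 545 CPM in J1, 165, 168 and 162 CPM in OCT4 and 25.6, 29.3 and 25.6 CPM in EWS-OCT4, so the groups did not overlap and the EWS-OCT4 libraries were the lowest. The labels do not say whether transcripts of the introduced OCT4 count towards Pou5f1 in the stable lines. ES cell markers were abundant in all lines, at a summed 4559.9 ± 188 CPM in J1, 3204 ± 28 in OCT4 and 3749 ± 50.7 in EWS-OCT4 over 10 genes (SD, n = 3). The 9 trophoblast markers summed to 118 ± 12.3, 418 ± 17.3 and 134 ± 2.48 CPM, the 8 primitive endoderm markers to 158 ± 5.09, 98.5 ± 5.15 and 306 ± 5.26 CPM, and the 9 fibroblast markers to 89.9 ± 9.76, 60.8 ± 3.21 and 29.9 ± 1.84 CPM, in the same order of lines. Most primitive endoderm markers did not follow their sum: 4 had their highest mean in J1, 2 in OCT4 and 2 in EWS-OCT4. For the fibroblast markers these counts were 3, 4 and 2, and for the trophoblast markers 0, 7 and 2.

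All 40 genes passed the filter on low counts, and as a group they did not move one way between the lines. In the EWS-OCT4 line against the OCT4 line, 14 were higher and 13 lower at an adjusted p under 0.05 (67.5%), beside 66.5% of all 16562 genes tested. Among all genes, 31.9% were higher and 34.6% lower. For EWS-OCT4 against J1 the counts were 17 higher and 10 lower (67.5%), beside 61.9% of all genes (30.3% higher, 31.6% lower). For OCT4 against J1 they were 21 higher and 14 lower (87.5%), beside 67.0% of all genes (34.3% higher, 32.7% lower). Changes that passed the test and reached 1.5-fold were found for 12 members in EWS-OCT4 against OCT4 (all genes 41.4%), 10 in EWS-OCT4 against J1 (36.1%) and 18 in OCT4 against J1 (43.9%). The values of the 3 libraries did not overlap between groups for 34 members in EWS-OCT4 against OCT4 (all genes 72.9%), 32 in EWS-OCT4 against J1 (65.7%) and 34 in OCT4 against J1 (68.4%). The median log2 fold change of the members was 0.02, 0.13 and 0.17 in these comparisons, beside -0.04, 0.00 and 0.01 over all genes. The median size of the change was 0.40, 0.34 and 0.51 on the log2 scale, each below that of all genes, at 0.52, 0.45 and 0.54. With each chromosome centred on its own median, the first comparison gave 11 members higher and 16 lower. The shares of all genes above are from the uncentred fit, so this split is not read as particular to the members. These are bulk libraries, in which fewer cells of a type and less RNA per cell cannot be told apart.

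**Figure D1:**
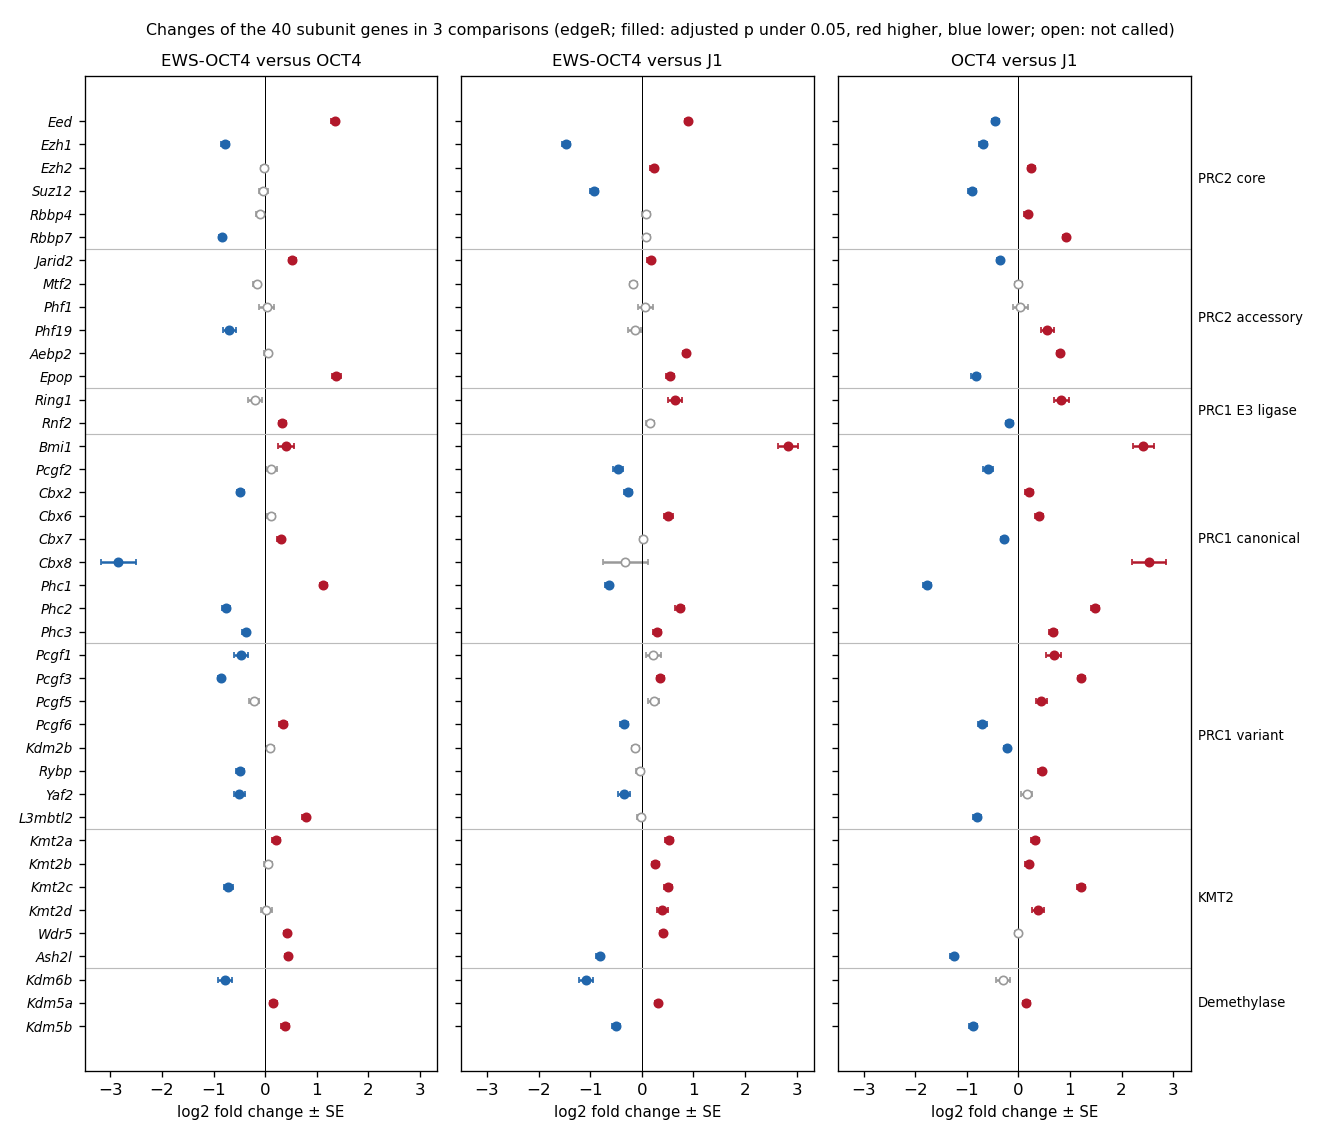
The log2 fold change (x axis) of each of the 40 subunit genes (y axis, grouped by complex) is drawn with its standard error in the 3 comparisons. Filled points passed an adjusted p under 0.05, red higher and blue lower, and open points did not: Eed and Epop lie farthest to the right in EWS-OCT4 versus OCT4, and Bmi1 farthest to the right against J1 in the EWS-OCT4 line.

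Within PRC2, the subunits shifted unequally. Eed, the subunit that binds methylated lysine 27 and stimulates the enzyme, stood at 141, 153 and 146 CPM in J1, 105, 104 and 113 CPM in OCT4 and 264, 269.8 and 286 CPM in EWS-OCT4. No library of the EWS-OCT4 line overlapped another line, and its Eed was 2.55-fold that of the OCT4 line, a log2 change of 1.35 (SE 0.0675, adjusted p = 1.31e-11). Against J1 it was also higher, by a log2 change of 0.90 (SE 0.0666, adjusted p = 3.69e-09), while the OCT4 line was lower than J1, by -0.45 (SE 0.067). Ezh1, the PRC2 methyltransferase that predominates in non-dividing cells, read 59, 52.7 and 55.6 CPM in J1, 35.9, 33.5 and 35.1 CPM in OCT4 and 22, 19.8 and 19 CPM in EWS-OCT4. Its groups followed that order without overlap, with log2 changes of -0.78 (SE 0.0807, adjusted p = 1.58e-07) in EWS-OCT4 against OCT4, -1.46 (SE 0.0796) in EWS-OCT4 against J1 and -0.68 (SE 0.0764) in OCT4 against J1. Ezh1 lies on chromosome 11, and with each chromosome centred on its median the log2 change in OCT4 against J1 shrank to -0.19 (adjusted p = 0.0362), beside -1.01 in EWS-OCT4 against J1.

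Ezh2, the main methyltransferase of dividing cells, read 128, 143 and 143 CPM in J1, 160.0, 162 and 170.5 CPM in OCT4 and 163, 158 and 166 CPM in EWS-OCT4. The stable lines overlapped, with a log2 change of -0.02 (SE 0.0666, adjusted p = 0.83) between them, and both were slightly above J1, by 0.23 (SE 0.0668) and 0.25 (SE 0.0668). Those small differences from J1 were not called once the median of chromosome 6 was subtracted, at 0.02 and 0.14. Suz12, the scaffold without which the complex does not assemble, read 588, 481 and 583 CPM in J1, 315, 287 and 287 CPM in OCT4 and 297, 284 and 289 CPM in EWS-OCT4. Both stable lines were thus below J1, by a log2 change of -0.92 (SE 0.0793, adjusted p = 2.31e-08) in the EWS-OCT4 line and -0.89 (SE 0.0793, adjusted p = 1.95e-08) in the OCT4 line, and overlapped each other, at -0.03 (SE 0.079, adjusted p = 0.736). The median gene of chromosome 11, which carries Suz12, changed by -0.46 in EWS-OCT4 and -0.49 in OCT4 against J1, and Suz12 lay -0.46 and -0.40 from those medians.

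Rbbp4 and Rbbp7 encode closely related histone-binding proteins that PRC2 shares with other complexes. Rbbp7, on the X chromosome, read 209.6, 221 and 212 CPM in J1, 422, 401 and 400.4 CPM in OCT4 and 232, 232 and 221 CPM in EWS-OCT4. The OCT4 line was above both other lines, by a log2 change of 0.93 (SE 0.0633, adjusted p = 6.00e-10) against J1, and EWS-OCT4 differed from OCT4 by -0.84 (SE 0.0632, adjusted p = 3.06e-09). X-linked genes moved with it, at a median of 0.63 in OCT4 against J1 and -0.45 in EWS-OCT4 against OCT4, and the part of this shift in the Rbbp7 result was not tested beyond subtracting it, which left 0.30 and -0.38. Rbbp4 lay between 211 and 239 CPM as group means and was called only in OCT4 against J1, at a log2 change of 0.18 (SE 0.0695, adjusted p = 0.027). That call was lost without J1 library 2 (log2 change 0.15) or 3 (0.13), OCT4 library 1 (0.19) or 2 (0.18), or EWS-OCT4 library 2 (0.17). It was also lost with no filter on low counts (0.17 on the log2 scale), in a fit of the 6 libraries compared (0.18) and with chromosomes centred (0.12). Rbbp4 passed in EWS-OCT4 against OCT4 with chromosomes centred (log2 change -0.17) and in EWS-OCT4 against J1 without J1 library 1 (0.15).

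**Figure D2:**
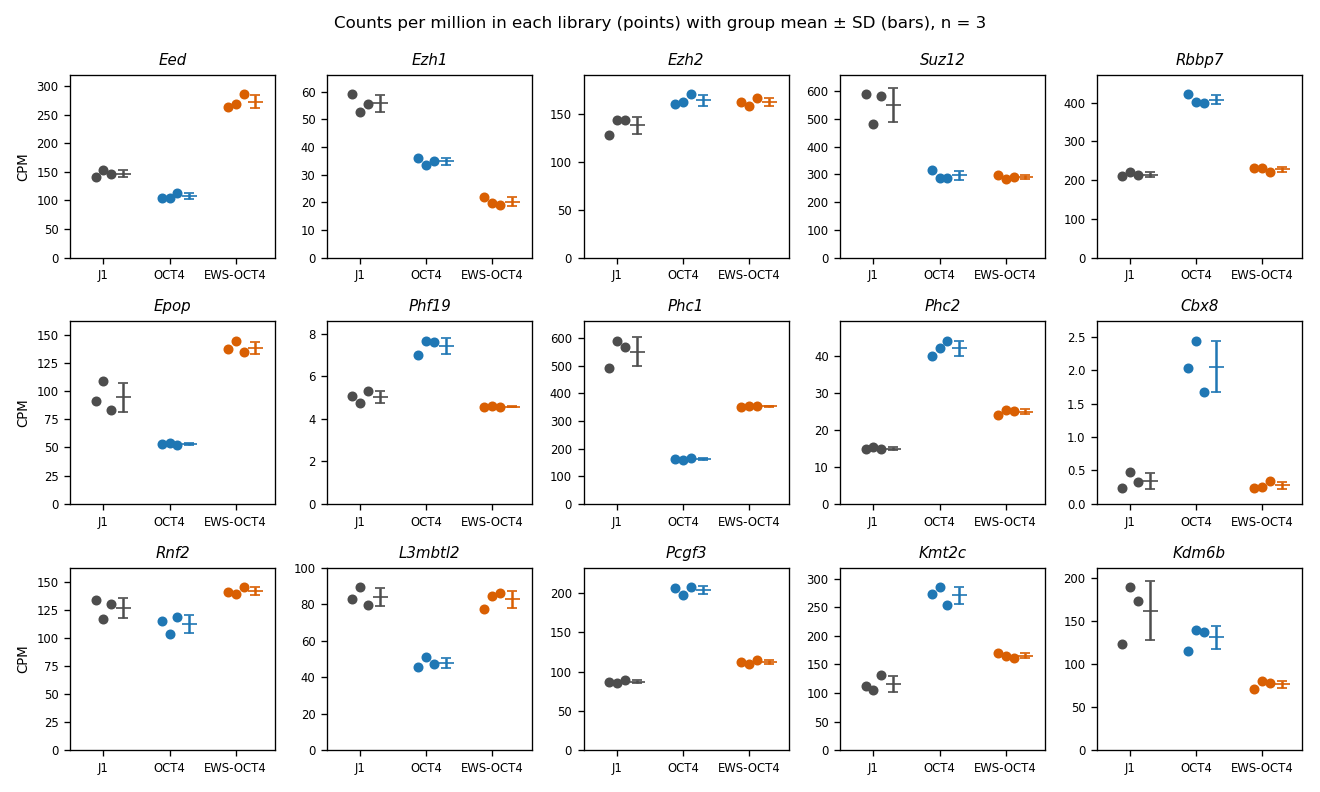
CPM (y axis, each starting at 0) of 15 subunit genes in each of the 9 libraries (points, by line on the x axis), with the mean and SD of each line as bars. Eed and Epop are highest in the EWS-OCT4 libraries, Rbbp7, Phc2, Pcgf3 and Kmt2c are highest in the OCT4 libraries, and Suz12 and Phc1 are highest in J1.

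Of the 6 core subunits, 1 was higher and 2 lower in EWS-OCT4 against OCT4, where 66.5% of all genes were called. Against J1, 2 were higher and 2 lower in EWS-OCT4 (all genes 61.9%), and 3 higher and 3 lower in OCT4 (67.0%). Per kilobase of the longest annotated coding transcript, Suz12 was the most abundant core subunit in J1, at 126 CPM per kb beside 95.5 for Rbbp7, 70.9 for Eed and 49.6 for Ezh2. In the EWS-OCT4 line Eed was the most abundant, at 132 CPM per kb beside 102 for Rbbp7, 66.3 for Suz12 and 58.2 for Ezh2. In the OCT4 line Rbbp7 led, at 182 CPM per kb. Levels of Ezh1 were low in all lines, from 4.81 CPM per kb in the EWS-OCT4 line to 13.3 in J1. The summed CPM of the 6 core genes was 1316 ± 54.8 in J1, 1249.8 ± 24.5 in OCT4 and 1198 ± 9.12 in EWS-OCT4.

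Promoter windows from RefSeq (build GRCm38.p6, from 250 bases before to 50 bases after the start, 300 in all) were found for 31 of the 40 members, in 42 windows. They were CpG-rich, with a median of 24 CpG in a window beside 7 over all 32851 windows of the table, and a median GC content of 64.3% beside 52.7%. Binding letters of the cell-cycle factor E2F were searched because several PRC2 genes are known E2F targets. TTTCCCGC, TTTGGCGC or TTTCGCGC, on either strand, occurred in 3 member windows (7.14%) and in 606 of all windows (1.84%). Each of these words holds a CpG, so the less CpG-rich windows of the whole table are not a like background, and the difference was not tested. The 3 windows belonged to Ezh2, Suz12 and Phf19, which did not share a pattern over the lines. The octamer ATGCAAAT that OCT4 binds was present in 1 member window (2.38%, beside 1.74% of all windows), on either strand. A match describes letters only, and absence says nothing about a factor. The windows with an E2F match, in capitals, are printed beside that of Ezh1, the Ezh2 paralog with no match, all 5′ to 3′ on the gene's strand:
Ezh2, chr6:47594981-47595280, minus strand: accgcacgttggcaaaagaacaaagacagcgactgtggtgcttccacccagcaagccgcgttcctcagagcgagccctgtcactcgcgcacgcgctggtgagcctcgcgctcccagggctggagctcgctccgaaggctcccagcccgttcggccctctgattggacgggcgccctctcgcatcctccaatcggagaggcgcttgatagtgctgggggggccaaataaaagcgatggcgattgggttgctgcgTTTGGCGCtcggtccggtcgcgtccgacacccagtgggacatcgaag
Suz12, chr11:79992856-79993155, plus strand: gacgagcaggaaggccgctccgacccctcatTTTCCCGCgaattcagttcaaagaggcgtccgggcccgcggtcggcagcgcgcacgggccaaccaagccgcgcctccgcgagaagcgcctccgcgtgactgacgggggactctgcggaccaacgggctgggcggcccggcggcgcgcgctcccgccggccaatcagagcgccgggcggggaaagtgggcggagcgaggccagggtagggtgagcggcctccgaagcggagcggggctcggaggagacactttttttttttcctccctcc
Phf19, chr2:34913927-34914226, minus strand: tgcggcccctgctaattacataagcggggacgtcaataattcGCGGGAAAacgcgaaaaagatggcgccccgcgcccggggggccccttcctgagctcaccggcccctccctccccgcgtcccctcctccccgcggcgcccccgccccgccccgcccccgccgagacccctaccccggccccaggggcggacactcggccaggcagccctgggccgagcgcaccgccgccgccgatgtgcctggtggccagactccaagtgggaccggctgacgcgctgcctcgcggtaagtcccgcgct
Ezh1, chr11:101226414-101226713, minus strand: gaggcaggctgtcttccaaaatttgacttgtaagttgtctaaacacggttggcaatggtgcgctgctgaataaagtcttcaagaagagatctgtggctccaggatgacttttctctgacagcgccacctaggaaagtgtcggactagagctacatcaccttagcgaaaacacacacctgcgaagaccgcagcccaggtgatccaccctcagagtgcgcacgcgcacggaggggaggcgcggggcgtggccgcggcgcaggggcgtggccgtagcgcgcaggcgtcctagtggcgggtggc

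Among the accessory subunits of PRC2, Epop and Jarid2 were, like Eed, highest in EWS-OCT4 and lowest in OCT4. Epop, an elongin-binding subunit of PRC2 in ES cells, read 91.5, 109 and 83.4 CPM in J1, 53.3, 54.1 and 52.4 CPM in OCT4 and 137, 144 and 134 CPM in EWS-OCT4. The 3 groups were apart, with EWS-OCT4 2.6-fold above OCT4 at a log2 change of 1.38 (SE 0.0833, adjusted p = 1.55e-10). EWS-OCT4 was also above J1, by a log2 change of 0.55 (SE 0.081), and OCT4 below it, by -0.83 (SE 0.0831), and with chromosome 11, which carries Epop, centred on its median these were 1.01 and -0.34. Jarid2, which helps to recruit PRC2 and stimulates it, was at 642 ± 39.1, 502 ± 11 and 725 ± 7.62 CPM in J1, OCT4 and EWS-OCT4 (SD, n = 3). It was higher in EWS-OCT4 than in OCT4, by a log2 change of 0.53 (SE 0.0663, adjusted p = 1.75e-06), and lower in OCT4 than in J1, by -0.35 (SE 0.0662). The difference from J1 in the EWS-OCT4 line, log2 change 0.18 (SE 0.066, adjusted p = 0.0283), was lost without J1 library 1 (0.14) or EWS-OCT4 library 2 (0.18) or 3 (0.17). It was also lost with upper-quartile scaling (0.13 on the log2 scale), a filter of 5 CPM in 3 libraries (0.13) or a fit of the 6 libraries compared (0.17), and shrank to 0.06 with chromosomes centred (adjusted p = 0.457).

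Phf19, a Polycomb-like protein that directs PRC2 to CpG islands, was scarce, at 5.06, 4.75 and 5.31 CPM in J1, 7.02, 7.68 and 7.6 CPM in OCT4 and 4.57, 4.63 and 4.55 CPM in EWS-OCT4. The OCT4 libraries were the highest, and EWS-OCT4 differed from them by a log2 change of -0.70 (SE 0.127, adjusted p = 1.06e-04). The related Mtf2, the main Polycomb-like protein of ES cells, was far more abundant, at 102, 102 and 91.1 CPM per kb in J1, OCT4 and EWS-OCT4 beside 1.35, 1.99 and 1.23 for Phf19. Mtf2 just missed the test in EWS-OCT4 against OCT4, at a log2 change of -0.16 (SE 0.0704, adjusted p = 0.0505), and passed it without J1 library 1 (-0.16) or 2 (-0.16) or OCT4 library 2 (-0.19). It passed there too with upper-quartile scaling (log2 change -0.20), a filter of 5 CPM in 3 libraries (-0.20), limma-voom (-0.16) and a fit of the 6 libraries compared (-0.15). Against J1, where it was not called in EWS-OCT4 (log2 change -0.16 (SE 0.0704)), it passed with upper-quartile scaling (-0.21), the 5 CPM filter (-0.20), limma-voom (-0.16) or without J1 library 2 (-0.22). With chromosomes centred, Mtf2 passed at a log2 change of -0.22 in EWS-OCT4 against OCT4, -0.41 in EWS-OCT4 against J1 and -0.19 in OCT4 against J1. Phf1, the remaining Polycomb-like gene, lay between 7.25 and 7.58 CPM with no call in any comparison. Aebp2, a zinc finger cofactor, was at 86.3 ± 2.64 CPM in J1 and at 151 ± 1.84 and 156 ± 0.506 CPM in the stable lines. Both stable lines exceeded J1, by a log2 change of 0.81 (SE 0.061, adjusted p = 2.33e-09) in OCT4 and 0.86 (SE 0.061, adjusted p = 2.23e-09) in EWS-OCT4, and between them Aebp2 differed by 0.05 (SE 0.0601, adjusted p = 0.499). In all, 2 accessory genes were higher and 1 lower in EWS-OCT4 against OCT4, where 66.5% of all genes were called. Against J1, 3 were higher and 0 lower in EWS-OCT4 (all genes 61.9%), and 2 higher and 2 lower in OCT4 (67.0%). Summed over the 6 genes, the EWS-OCT4 line held 1402 ± 2.13 CPM, above J1 at 1249 ± 37.2 and OCT4 at 1136 ± 24.6.

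The catalytic E3 ligases of PRC1 were unequal in level. Rnf2 (RING1B), the main ligase of ES cells, read 134, 117 and 131 CPM in J1, 116, 104 and 119 CPM in OCT4 and 142, 139 and 146 CPM in EWS-OCT4. The EWS-OCT4 libraries were the highest and the other lines overlapped, with EWS-OCT4 above OCT4 by a log2 change of 0.33 (SE 0.0717, adjusted p = 5.45e-04). Rnf2 in the EWS-OCT4 line was not called against J1, at a log2 change of 0.16 (SE 0.0714, adjusted p = 0.0632), and passed that test without J1 library 1 (0.20) or with chromosomes centred (0.28). Its call in OCT4 against J1, log2 change -0.17 (SE 0.0717, adjusted p = 0.0394), was lost without J1 library 1 (-0.14) or 3 (-0.17), or OCT4 library 1 (-0.19) or 2 (-0.12), in a fit of the 6 libraries compared (-0.18) and with chromosomes centred (-0.12). Ring1, its paralog, was at 1.85, 3.28 and 2.88 CPM per kb in J1, OCT4 and EWS-OCT4, beside 39.8, 35.3 and 44.4 for Rnf2. Ring1 was higher than in J1 in both stable lines, by a log2 change of 0.83 (SE 0.14, adjusted p = 4.65e-05) in OCT4 and 0.64 (SE 0.142, adjusted p = 7.58e-04) in EWS-OCT4, and not called between them (-0.19 (SE 0.135)).

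In canonical PRC1, paralogs differed in direction. Phc1, a Polyhomeotic protein that lets PRC1 polymerize, read 492, 590.4 and 569 CPM in J1, 161, 158 and 165 CPM in OCT4 and 352, 353 and 353 CPM in EWS-OCT4. It was lowest in every OCT4 library, with EWS-OCT4 above OCT4 by a log2 change of 1.13 (SE 0.0729, adjusted p = 3.75e-10) and both below J1, by -1.77 (SE 0.0739) in OCT4 and -0.64 (SE 0.0718) in EWS-OCT4. Phc2, a second Polyhomeotic gene, ran the other way, at 14.8, 15.4 and 14.8 CPM in J1, 39.9, 42.2 and 44.2 CPM in OCT4 and 24.2, 25.5 and 25.2 CPM in EWS-OCT4. The OCT4 libraries were the highest and J1 the lowest, with log2 changes of -0.76 (SE 0.0747, adjusted p = 9.50e-08) in EWS-OCT4 against OCT4 and 1.49 (SE 0.0776) in OCT4 against J1. Phc3 had the same order of lines as Phc2 at smaller distances, 27.1 ± 1.06, 43 ± 2.35 and 33.1 ± 0.829 CPM, with log2 change -0.38 (SE 0.0729) in EWS-OCT4 against OCT4. Its higher level in EWS-OCT4 than in J1, log2 change 0.29 (SE 0.0744), was lost with chromosomes centred (0.11). Per kilobase, Phc1 was still the most abundant of the 3 in the OCT4 line, at 38.3 CPM per kb beside 10.7 for Phc2 and 3.92 for Phc3.

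The CBX proteins carry the chromodomain that reads methylated lysine 27. Cbx8 was near the limit of counting, with raw counts of 6, 12 and 7 in J1, 44, 54 and 40 in OCT4 and 5, 6 and 8 in EWS-OCT4. The OCT4 libraries stood apart from all others, and EWS-OCT4 differed from OCT4 by a log2 change of -2.84 (SE 0.342, adjusted p = 1.07e-06), with 2.03, 2.44 and 1.68 CPM in OCT4 beside 0.24, 0.26 and 0.337 CPM in EWS-OCT4 and 0.241, 0.479 and 0.329 CPM in J1. It passed the filter only through the OCT4 libraries, so it could be tested because it was high there. Cbx7, the main CBX protein of ES cells, was at 126 ± 2.6, 105 ± 4.18 and 129 ± 0.775 CPM and was higher in EWS-OCT4 than in OCT4 by a log2 change of 0.30 (SE 0.0618, adjusted p = 3.48e-04). Cbx2 went in the opposite direction, by a log2 change of -0.48 (SE 0.076, adjusted p = 2.70e-05), from 28.3 ± 1.07 CPM in OCT4 to 20.4 ± 0.541 in EWS-OCT4, with J1 between at 24.5 ± 0.278. Its lower level in EWS-OCT4 than in J1, log2 change -0.27 (SE 0.0764), turned to 0.185 and stayed past the threshold once the median of chromosome 11 was subtracted. The higher level in OCT4 than in J1, log2 change 0.21 (SE 0.0748), was lost without J1 library 3 (0.19) or OCT4 library 3 (0.18), with no filter on low counts (0.19) and in a fit of the 6 libraries compared (0.20). With chromosome 11 centred it was larger, at a log2 change of 0.69 (adjusted p = 2.26e-07). Cbx6 was above J1 in both stable lines, by a log2 change of 0.40 (SE 0.0857) in OCT4 and 0.51 (SE 0.0855) in EWS-OCT4, and not called between them (0.11 (SE 0.0846)) except in a fit of the 6 libraries compared (0.13).

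Bmi1 (PCGF4) and Pcgf2 (MEL18) are the alternative RING partners of canonical PRC1. Bmi1 rose from 2.09, 1.24 and 1.32 CPM in J1 to 10.02, 6.64 and 8.49 CPM in OCT4 and 11.7, 10.3 and 11.5 CPM in EWS-OCT4. Neither stable line overlapped J1, and the log2 changes against it were 2.43 (SE 0.196, adjusted p = 5.76e-09) in OCT4 and 2.84 (SE 0.193, adjusted p = 1.14e-09) in EWS-OCT4. The smaller step between the stable lines, log2 change 0.41 (SE 0.157, adjusted p = 0.0282), was lost without OCT4 library 2 (0.27) or 3 (0.42), or EWS-OCT4 library 1 (0.40) or 3 (0.40), with a filter of 5 CPM in 3 libraries (0.37) and with chromosomes centred (0.35). Pcgf2 remained the more abundant, at 43.7, 29.1 and 31.7 CPM per kb beside 0.431, 2.33 and 3.1 for Bmi1 in J1, OCT4 and EWS-OCT4. It was lower than in J1 in both stable lines, by a log2 change of -0.58 (SE 0.1003) in OCT4 and -0.46 (SE 0.0999) in EWS-OCT4, and both calls were lost once the median of chromosome 11 was subtracted (-0.10 and -0.01). Of the 9 canonical genes, 3 were higher and 4 lower in EWS-OCT4 against OCT4, where 66.5% of all genes were called. Against J1, 4 were higher and 3 lower in EWS-OCT4 (all genes 61.9%), and 6 higher and 3 lower in OCT4 (67.0%). The summed CPM of the 9 genes was 893 ± 71.8 in J1, 515 ± 15 in OCT4 and 707 ± 5.76 in EWS-OCT4, with no overlap between lines. Phc1 was the largest part of this sum in every line, at means of 550, 161 and 353 CPM. By single genes, 2 of the 9 had their highest mean in J1, 4 in OCT4 and 3 in EWS-OCT4, so the sum does not describe the complex as a whole.

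Variant PRC1 complexes form around other PCGF proteins together with RYBP or YAF2. Pcgf3, the RING partner of PRC1.3, read 86.8, 85.4 and 89 CPM in J1, 206, 197 and 207 CPM in OCT4 and 112, 109.8 and 114 CPM in EWS-OCT4. The OCT4 libraries were well above the rest, with EWS-OCT4 at a log2 change of -0.86 (SE 0.0613, adjusted p = 1.38e-09) against OCT4, and OCT4 at 1.22 (SE 0.0619) against J1. EWS-OCT4 was above J1 by a log2 change of 0.36 (SE 0.0617), a call that was lost with chromosomes centred (0.11). L3mbtl2, an MBT-domain subunit of the PCGF6 complex, read 82.8, 89.4 and 79.4 CPM in J1, 45.7, 51.1 and 47.4 CPM in OCT4 and 77.6, 84.4 and 86.3 CPM in EWS-OCT4. It was lowest in every OCT4 library, with EWS-OCT4 higher by a log2 change of 0.78 (SE 0.0726, adjusted p = 4.19e-08), and EWS-OCT4 overlapped J1 at -0.02 (SE 0.071, adjusted p = 0.828). Pcgf6 itself, the RING partner in that complex, had J1 highest at 56.4 ± 6.28 CPM, OCT4 lowest at 34.8 ± 1.62 CPM and EWS-OCT4 between at 44.3 ± 0.691 CPM, and was higher in EWS-OCT4 than in OCT4 by a log2 change of 0.35 (SE 0.082, adjusted p = 0.00121).

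Rybp, the histone-binding subunit that stimulates variant PRC1, was highest in the OCT4 line, at 237 ± 3.13 CPM beside 173 ± 19.3 in J1 and 169 ± 3.72 in EWS-OCT4. EWS-OCT4 was lower than OCT4 by a log2 change of -0.49 (SE 0.0752, adjusted p = 2.00e-05). It was not called in EWS-OCT4 against J1, at a log2 change of -0.03 (SE 0.0752), but passed there with chromosomes centred (-0.25). Its paralog Yaf2 fell alike, by a log2 change of -0.50 (SE 0.114, adjusted p = 9.15e-04), to 11 ± 0.592 CPM from 15.5 ± 2.12 in OCT4. The Yaf2 difference of EWS-OCT4 from J1, log2 change -0.34 (SE 0.114), was lost without J1 library 1 (-0.27) or 3 (-0.32) or EWS-OCT4 library 2 (-0.28). Pcgf1, the RING partner of the KDM2B complex, was scarce and highest in OCT4, at 4.36 ± 0.327, 7.03 ± 0.767 and 5.1 ± 0.403 CPM, with EWS-OCT4 lower by a log2 change of -0.46 (SE 0.137, adjusted p = 0.00694). Kdm2b, which binds unmethylated CpG islands, was called in OCT4 against J1 (log2 change -0.22 (SE 0.0633)), with means between 66.6 and 77.7 CPM. In EWS-OCT4 against J1 it was not called, at a log2 change of -0.12 (SE 0.0632), but passed with upper-quartile scaling (-0.17) or a filter of 5 CPM in 3 libraries (-0.17). With chromosomes centred, the log2 change of Kdm2b against J1 was -0.38 (adjusted p = 6.16e-05) in EWS-OCT4 and -0.42 in OCT4. Pcgf5, the RING partner of PRC1.5, was called in OCT4 against J1 (log2 change 0.44 (SE 0.106)) and not in the other comparisons. Without J1 library 1 it passed in EWS-OCT4 against J1 too (0.33), as it did with no filter on low counts (0.24), and without J1 library 1 (log2 change -0.21) or 2 (-0.21) in EWS-OCT4 against OCT4. The latter also passed with upper-quartile scaling (log2 change -0.25), the 5 CPM filter (-0.26), a fit of the 6 libraries compared (-0.20) and chromosomes centred (-0.30). Of the 8 variant genes, 2 were higher and 4 lower in EWS-OCT4 against OCT4, where 66.5% of all genes were called. Against J1, 1 was higher and 2 lower in EWS-OCT4 (all genes 61.9%), and 4 higher and 3 lower in OCT4 (67.0%). Summed, the 8 genes held 513 ± 25.9 CPM in J1, 634 ± 6.17 in OCT4 and 514 ± 2.24 in EWS-OCT4, where J1 and EWS-OCT4 overlapped. Pcgf3 alone had means of 87.1, 203 and 112 CPM in these lines. By single genes, 3 of the 8 had their highest mean in J1, 5 in OCT4 and 0 in EWS-OCT4.

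On the Trithorax side, Kmt2a, Kmt2b, Kmt2c and Kmt2d encode the methyltransferases. Kmt2c (MLL3), an enhancer methyltransferase, read 112, 105 and 132 CPM in J1, 273, 285 and 254 CPM in OCT4 and 169, 165 and 162 CPM in EWS-OCT4. The OCT4 libraries were the highest, with EWS-OCT4 at a log2 change of -0.71 (SE 0.0805, adjusted p = 5.26e-07) against OCT4 and 0.51 (SE 0.0811) against J1, the latter 0.26 with chromosomes centred. Kmt2d (MLL4), its paralog, overlapped between the stable lines (0.02 (SE 0.108)) and was above J1 in both, by a log2 change of 0.38 (SE 0.108) in OCT4 and 0.40 (SE 0.108) in EWS-OCT4. Without J1 library 1 these log2 changes were 0.24 and 0.27, still past the threshold. Kmt2a (MLL1) and Kmt2b (MLL2), which act mainly at promoters, were also above J1, by a log2 change of 0.53 (SE 0.0782) and 0.26 (SE 0.0696) in EWS-OCT4 and by 0.32 (SE 0.0782) and 0.20 (SE 0.0697) in OCT4. With chromosomes centred, the log2 change of Kmt2a in EWS-OCT4 against J1 was 0.31. Both Kmt2b calls were lost once its chromosome's median was subtracted, at 0.11 and 0.13, and the one in OCT4 also without J1 library 1 (log2 change 0.14) or OCT4 library 2 (0.18) or 3 (0.19). The further step of Kmt2a in EWS-OCT4 against OCT4, log2 change 0.21 (SE 0.0779, adjusted p = 0.022), was lost without OCT4 library 1 (0.20) or 3 (0.20) or EWS-OCT4 library 3 (0.22), and with a filter of 5 CPM in 3 libraries (0.17). With chromosomes centred it shrank to a log2 change of 0.06 (adjusted p = 0.478).

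Wdr5 and Ash2l encode core subunits shared by all these complexes. Wdr5, the WD40 scaffold, was at 131 ± 4.08 and 131 ± 2.19 CPM in J1 and OCT4 and at 175 ± 5.17 CPM in EWS-OCT4. It was higher there by a log2 change of 0.42 (SE 0.0619, adjusted p = 1.18e-05) against OCT4 and 0.41 (SE 0.0619, adjusted p = 1.70e-05) against J1, the latter 0.28 with chromosomes centred. Ash2l, which stimulates the methyltransferase, was highest in J1 at 467 ± 19.5 CPM, beside 196 ± 8.06 in OCT4 and 266 ± 2.98 in EWS-OCT4. Both stable lines were below J1, by a log2 change of -1.26 (SE 0.0652, adjusted p = 1.72e-11) and -0.81 (SE 0.0645, adjusted p = 8.69e-09), and EWS-OCT4 was above OCT4 by 0.44 (SE 0.0647, adjusted p = 1.07e-05). Ash2l lies on chromosome 8, whose median log2 change against J1 was also below 0, at -0.49 in OCT4 and -0.41 in EWS-OCT4; its distance from those medians was -0.76 and -0.40. Of the 6 KMT2 genes, 3 were higher and 1 lower in EWS-OCT4 against OCT4, beside 31.9% and 34.6% of all genes. Against J1 the counts were 5 and 1 in EWS-OCT4 (all genes 30.3% and 31.6%) and 4 and 1 in OCT4 (34.3% and 32.7%), where the Kmt2b calls are those lost with its chromosome centred.

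The demethylases act against these marks. Kdm6b (JMJD3), which removes methylation from lysine 27, read 124, 189 and 173 CPM in J1, 115, 139.8 and 137 CPM in OCT4 and 71.4, 79.9 and 77.6 CPM in EWS-OCT4. Every EWS-OCT4 library was below all others, by a log2 change of -0.78 (SE 0.137, adjusted p = 3.40e-04) against OCT4 and -1.08 (SE 0.137, adjusted p = 2.91e-05) against J1, the latter -0.63 with chromosome 11 centred. OCT4 and J1 overlapped at a log2 change of -0.30 (SE 0.134, adjusted p = 0.0637), a difference that passed the test without J1 library 1 (-0.47). It also passed with RLE scaling, no filter on low counts, the 5 CPM filter, DESeq2 and without mitochondrially encoded genes and Gm26917, at log2 changes from -0.32 to -0.31. Kdm5b, a lysine 4 demethylase abundant in ES cells, was at 718 ± 33.1, 390.2 ± 28.2 and 509 ± 24.4 CPM in J1, OCT4 and EWS-OCT4. EWS-OCT4 was higher than OCT4 by a log2 change of 0.38 (SE 0.0722, adjusted p = 1.56e-04), and both were below J1, by -0.88 (SE 0.0726) in OCT4 and -0.50 (SE 0.0721) in EWS-OCT4. Kdm5a, its paralog, was above J1 in EWS-OCT4, by a log2 change of 0.31 (SE 0.0648, adjusted p = 4.34e-04), a call that was lost once the median of chromosome 6 was subtracted (0.10). Its other calls were slight, at log2 changes of 0.16 (SE 0.0647, adjusted p = 0.037) in EWS-OCT4 against OCT4 and 0.15 (SE 0.0649, adjusted p = 0.0448) in OCT4 against J1. The former was lost without OCT4 library 2 (log2 change 0.15) or 3 (0.14) or EWS-OCT4 library 2 (0.17) or 3 (0.18), with upper-quartile scaling (0.12) and with the 5 CPM filter (0.12). With chromosomes centred it shrank to 0.05 (adjusted p = 0.462). The latter passed under 3 of 18 alternatives, was lost without any of 8 libraries, J1 library 3 being the exception, and was 0.05 on the log2 scale with chromosomes centred. The 3 demethylases split 2 higher and 1 lower in EWS-OCT4 against OCT4, where 66.5% of all genes were called. Against J1, 1 was higher and 2 lower in EWS-OCT4 (all genes 61.9%), and 1 higher and 1 lower in OCT4 (67.0%).

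Ratios between paralogs do not depend on library size. They are given as the mean log2 ratio of CPM in each line (prior 0.5 CPM, SD, n = 3), not corrected for transcript length. The ratio of Ezh1 to Ezh2 was -1.30 ± 0.17 in J1, -2.22 ± 0.0697 in OCT4 and -2.98 ± 0.121 in EWS-OCT4, without overlap between lines. The ratio of Rbbp4 to Rbbp7 was -0.03 ± 0.138 in J1 and -0.03 ± 0.0905 in EWS-OCT4, which overlapped, and -0.77 ± 0.0436 in OCT4. Cbx7 to Cbx2 stood at 2.34 ± 0.0432, 1.87 ± 0.0423 and 2.63 ± 0.0446 in J1, OCT4 and EWS-OCT4. The order of EWS-OCT4 and J1 depends on the shift of chromosome 11, which carries Cbx2. With chromosomes centred, the log2 changes in EWS-OCT4 against J1 were -0.03 for Cbx7 and 0.185 for Cbx2. Ezh1 and Pcgf2 also lie on chromosome 11 and Rbbp7 on the X chromosome, and no ratio was computed with chromosomes centred. Pcgf2 to Bmi1 dropped from 5.74 ± 0.566 in J1 to 3.05 ± 0.314 in OCT4 and 2.77 ± 0.1998 in EWS-OCT4, and the stable lines overlapped. Kmt2c to Kmt2d was 0.08 ± 0.0916 in OCT4, above -0.75 ± 0.244 in J1 and -0.65 ± 0.0843 in EWS-OCT4. Kdm5a to Kdm5b was -2.88 ± 0.042 in J1 and higher in OCT4, at -1.84 ± 0.0674, and EWS-OCT4, at -2.07 ± 0.0726. Ring1 to Rnf2 was -4.91 ± 0.104, -3.98 ± 0.222 and -4.49 ± 0.0916, Rybp to Yaf2 3.59 ± 0.0218, 3.90 ± 0.172 and 3.89 ± 0.0696, and Kmt2a to Kmt2b 0.45 ± 0.235, 0.57 ± 0.064 and 0.73 ± 0.0302, in J1, OCT4 and EWS-OCT4. With 3 libraries a line, the two-sided exact permutation test of a ratio cannot give a p below 0.1, so no ratio passed.

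Position on the chromosomes bears on several members. Chromosome 11 carries 7 of them (Ezh1, Suz12, Epop, Pcgf2, Cbx2, Cbx8 and Kdm6b), more than any other chromosome. Its median log2 change was close to 0 between the stable lines, at 0.02, but below 0 against J1, at -0.46 in EWS-OCT4 and -0.49 in OCT4. Against J1, 1 of these 7 was higher and 5 lower in EWS-OCT4, and 2 higher and 4 lower in OCT4. On the log2 scale, relative to the chromosome's own median, 3 of the 7 were below it in EWS-OCT4 and 4 in OCT4. Ezh1 in EWS-OCT4 was -1.002 from the median and Kdm6b -0.62, while Epop was 1.01 above it. Subtracting the medians was the only check made, and their part in these differences was not tested otherwise.

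**Figure D3:**
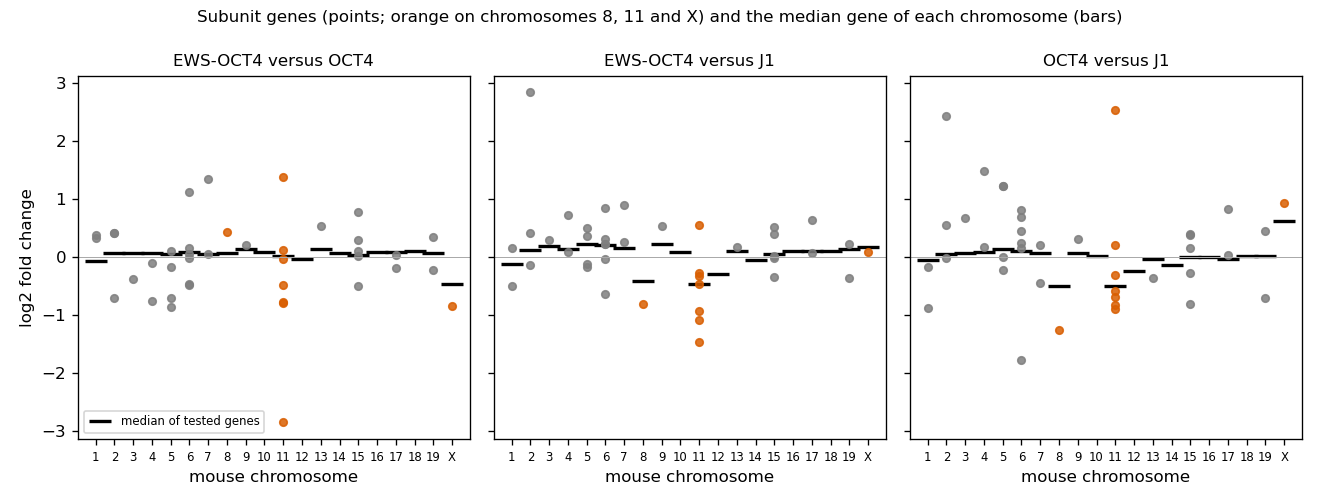
The log2 fold change (y axis) of each subunit gene (points) is placed at its chromosome (x axis) with the median of all tested genes there that had a mean of at least 5 CPM (black bars). The bars of chromosomes 8 and 11 lie between -0.41 and -0.49 in both comparisons with J1, and the X bar lies at -0.45 in EWS-OCT4 versus OCT4 and 0.63 in OCT4 versus J1.

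A further 51 genes, listed as subunits or partners of these or related complexes or as other histone demethylases, were all tested. In EWS-OCT4 against OCT4, 26 were higher and 13 lower (76.5%, beside 66.5% of all genes, 31.9% higher and 34.6% lower), with a median log2 fold change of 0.21 beside -0.04. In EWS-OCT4 against J1, 22 were higher and 11 lower (64.7%, beside 61.9%, 30.3% higher and 31.6% lower), with a median of 0.10 beside 0.00 on the log2 scale. In OCT4 against J1, 17 were higher and 24 lower (80.4%, beside 67.0%, 34.3% higher and 32.7% lower), with a median of -0.18 beside 0.01 on the log2 scale. Setd1b, the methyltransferase of another lysine 4 complex, was at 26, 35.7 and 34.7 CPM in J1, 31.1, 36 and 35.7 CPM in OCT4 and 128, 141 and 130.5 CPM in EWS-OCT4. It stood apart in the EWS-OCT4 libraries, by a log2 change of 1.96 (SE 0.101, adjusted p = 4.22e-11) against OCT4, and its partners Cxxc1 and Wdr82 were also higher, by 0.80 (SE 0.0794) and 0.69 (SE 0.0673). Hcfc2 (log2 change -0.92 (SE 0.116)), Ncoa6 (-0.58 (SE 0.0753)) and Rbbp5 (-0.35 (SE 0.0602)) of the lysine 4 complexes were lower. Among variant PRC1 partners, Cbx1 (log2 change 0.77 (SE 0.102)), Usp7 (0.75 (SE 0.0642)) and Max (0.72 (SE 0.0667)) were higher, and the corepressors Bcorl1 (-1.39 (SE 0.104)) and Bcor (-0.66 (SE 0.0684)), both X-linked, were lower.

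Of the 8 subunits of PR-DUB, the complex that removes ubiquitin from histone H2A, 4 were higher and 4 lower in EWS-OCT4 against OCT4. Among all genes, 31.9% were higher and 34.6% lower there. Asxl2 (log2 change 0.57 (SE 0.0715)), Asxl1 (0.39 (SE 0.063)) and the enzyme Bap1 (0.34 (SE 0.0626)) were higher. Mbd6 (log2 change -0.53 (SE 0.198)), Foxk2 (-0.39 (SE 0.0633)) and Mbd5 (-0.30 (SE 0.0917)) were lower. Sfmbt2, an MBT-domain Polycomb protein that is imprinted and active in trophoblast, was at 7.23, 5.9 and 6.72 CPM in J1, 91.3, 95.8 and 81.4 CPM in OCT4 and 153, 151 and 145 CPM in EWS-OCT4. Both stable lines were far above J1, by a log2 change of 3.76 (SE 0.0917) and 4.499 (SE 0.0924), and EWS-OCT4 exceeded OCT4 by 0.74 (SE 0.0737). Ezhip, an X-linked inhibitor of PRC2, was highest in the OCT4 libraries, at 6.09, 5.33 and 5.34 CPM beside 0.643, 0.399 and 0.423 in J1 and 1.49, 1.47 and 1.9 in EWS-OCT4 (log2 change -1.78 (SE 0.192) in EWS-OCT4 against OCT4). Sfmbt1 (log2 change 0.47 (SE 0.108)) was higher, and the PRC2 partners Lcorl (-0.95 (SE 0.169)) and Lcor (-0.22 (SE 0.0807)) were lower. Of the other demethylases, Uty (log2 change 2.03 (SE 0.114)) and Kdm2a (0.37 (SE 0.0708)) were higher and Kdm5c (-0.37 (SE 0.0673)) lower, where Uty is Y-linked and the median of 6 Y-linked genes was 1.60.

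Genes that Polycomb keeps silent in ES cells, summed by list, were most abundant in the OCT4 line. The 39 Hox genes summed to 8.07, 11.5 and 10.2 CPM in J1, 46.5, 46.7 and 45.4 CPM in OCT4 and 10.4, 9.52 and 10.7 CPM in EWS-OCT4. J1 and EWS-OCT4 overlapped, the OCT4 libraries were all above them, and 35 of the 39 genes had their highest mean in OCT4. That count includes genes among the 26 too scarce to test, where means near 0 are ranked. The share of all genes highest in OCT4 is not given beside it. Only 13 Hox genes passed the filter on low counts, largely through the OCT4 libraries, so their calls are not counted here as support. Among those with at least 5 CPM, Hoxc13 (log2 change -2.45 (SE 0.158)) and Hoxb9 (-1.998 (SE 0.178)) were lower in EWS-OCT4 than in OCT4.

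The 38 other developmental target genes summed to 34.4, 37 and 38.6 CPM in J1, 185, 206 and 206 CPM in OCT4 and 81.5, 86.9 and 89.8 CPM in EWS-OCT4. The lines were apart, with OCT4 highest and J1 lowest. By single genes, 24 of the 38 had their highest mean in OCT4, 10 in EWS-OCT4 and 4 in J1. Hand1, a trophoblast and mesoderm factor, accounted for much of the OCT4 sum, at 68.1, 82.5 and 83.9 CPM beside 1.49, 1.92 and 1.93 in J1 and 2.02, 2.42 and 1.98 in EWS-OCT4. Gata6, an endoderm factor, and Lmx1b, a limb and neural factor, were also lower in EWS-OCT4 than in OCT4, by a log2 change of -4.63 (SE 0.349) and -2.56 (SE 0.224). Pax6, a neural and eye factor, was highest in EWS-OCT4, at 10.1, 10.9 and 10.4 CPM beside 1.85, 2.23 and 1.97 in J1 and 0.462, 0.316 and 0.588 in OCT4, and En2 was slightly higher than in OCT4, by a log2 change of 0.26 (SE 0.0884). The list shares 2 genes with the trophoblast markers (Cdx2 and Hand1) and 4 with the primitive endoderm markers (Foxa2, Gata4, Gata6 and Sox17). Without these, the remaining 32 targets summed to 29.8 ± 2.03 CPM in J1, 100.1 ± 2.72 CPM in OCT4 and 80.8 ± 4.33 CPM in EWS-OCT4. The sums of the stable lines were thus much closer together, both above J1. Single genes differed from this: of the 27 tested in the full list, 4 were higher and 17 lower in EWS-OCT4 against OCT4 (all genes 31.9% and 34.6%). Against J1, 8 were higher and 6 lower in EWS-OCT4 (all genes 30.3% and 31.6%). The median log2 changes were -1.31 and 0.22. The 32 were not counted apart, and some genes may have passed the filter through 1 line. Trophoblast markers were also highest in OCT4, at 405, 411 and 438 CPM beside 132, 137 and 134 CPM in EWS-OCT4 and 104, 129 and 121 CPM in J1. Of the 9 markers, 7 were highest in OCT4. In EWS-OCT4 the trophoblast sum, which includes Hand1 and Cdx2, lay close to J1, while the 32 targets without shared markers lay closer to OCT4. The part of the trophoblast markers in the target sums was not tested.

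**Figure D4:**
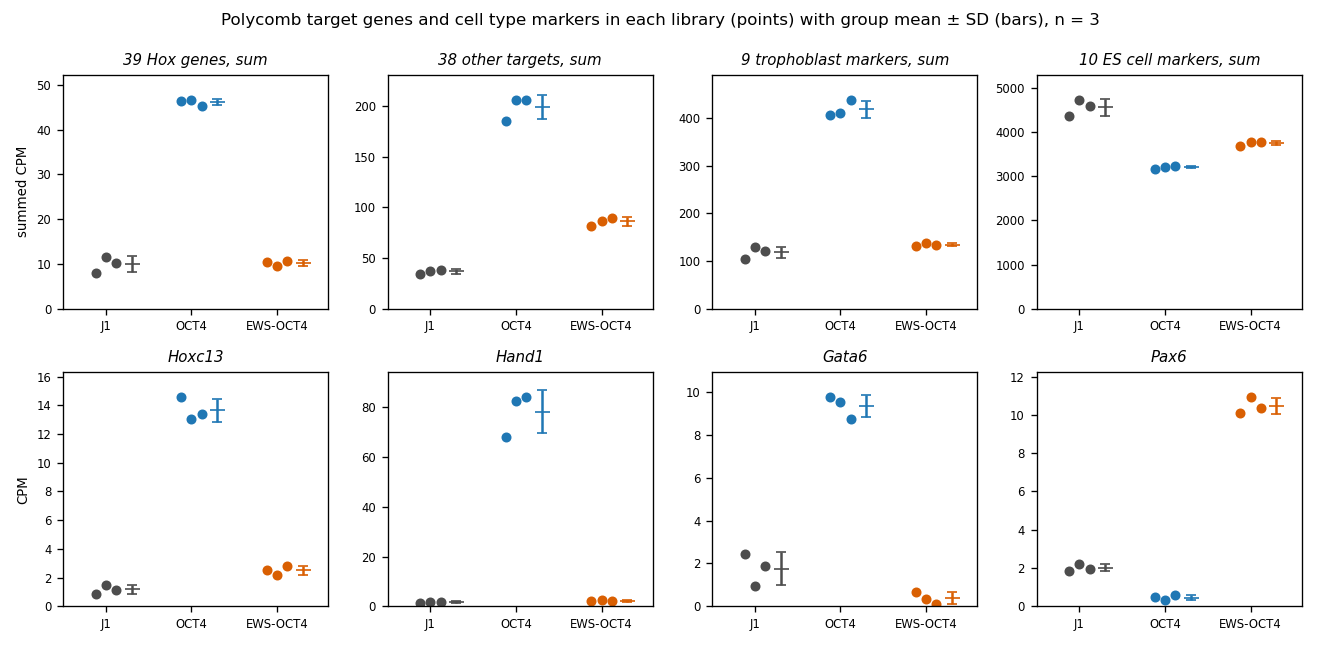
The top row gives summed CPM (y axis, from 0) of Hox genes, other developmental targets, trophoblast markers and ES cell markers in each library (points, by line on the x axis) with the mean and SD of each line, and the bottom row gives CPM of 4 single targets. The Hox, other target and trophoblast sums are highest in all 3 OCT4 libraries, the ES cell marker sum is highest in J1, and Pax6 is highest in EWS-OCT4.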

How the data were processed

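Each of the 9 libraries of total RNA (CORALL kit) had 1 table of raw, whole-number counts by gene symbol, as deposited by the authors. GATK, Salmon, STAR, fastp and the build GRCm39 appear in the submitters' processing notes. For annotation, strand and molecular identifiers the setting is not given in the sources used here, so counts of overlapping or antisense genes and close paralogs are uncertain, and counting intervals would cover counting error only. Groups and numbers came from sample titles. Library totals were 21149358 to 24786305 counts.

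Genes were kept by filterByExpr (minimum count 10, minimum total 15), which left 16562. The 3 groups were fitted together, over all 9 libraries, in edgeR 4.0.16 under R 4.3.3, with TMM scaling, robust glmQLFit, glmQLFTest and Benjamini-Hochberg adjustment over all tested genes at 0.05. The standard error was taken as the absolute log2 fold change over the root of F. The scripts were tested on simulated data. Lengths are those of the longest coding transcript in GENCODE M21, and chromosomes and promoters came from RefSeq (GRCm38.p6), matched by symbol, with GENCODE for chromosomes RefSeq left out; the files' build differs, so only promoter positions are printed. Medians by chromosome leave out genes whose mean was under 5 CPM.

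The members and lists were chosen with earlier results of these data known. All members are named. Library values are given for those changed at least 1.5-fold with an adjusted p under 0.05 in EWS-OCT4 against OCT4, for Ezh2, Suz12, Rnf2 and Kdm6b, and, added after their values were seen, for Bmi1. Of each other list, up to 3 genes per direction with at least 5 CPM are named. Alternatives were RLE and upper-quartile scaling, 2 other filters, DESeq2 1.42.0, limma-voom (limma 3.58.1), fits of 6 libraries, the replicate number as a block, each library left out, removal of mitochondrially encoded genes and Gm26917, centring of chromosomes and, for ratios, a prior of 2 CPM. A target gene that the rule for named genes selects is not reported here.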

Additional observations from a re-analysis of the deposited data

Results flagged for a closer look

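Of the members, 4 were called in opposite directions against J1 in the stable lines, which share the J1 libraries, and also differed between the stable lines in edgeR's test of EWS-OCT4 against OCT4. The share of all genes that did so was not counted, so the number is not read as particular to the members. Eed was higher than J1 in EWS-OCT4 (log2 fold change 0.90) and lower in OCT4 (-0.45), a difference between the lines of 1.35 with no overlap of libraries. Epop was likewise higher in EWS-OCT4 (0.55) and lower in OCT4 (-0.83), with a difference of 1.38. Jarid2 was higher in EWS-OCT4 (0.18) and lower in OCT4 (-0.35), with a difference of 0.53. Cbx2 was lower in EWS-OCT4 (-0.27) and higher in OCT4 (0.21), with a difference of -0.48. For Eed and Epop, the calls held in each of the 18 alternatives without the block. The calls of Jarid2 in EWS-OCT4 against J1 and of Cbx2 in OCT4 against J1 were lost in some of them. The direction of Cbx2 in EWS-OCT4 against J1 turned when each chromosome was centred on its own median.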

How the results depend on the processing

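Each of the 12 counts of members or of all genes called higher or lower stayed within 1.5 times its value under all 19 alternatives. Members higher ranged from 11 to 16 and lower from 13 to 16 in EWS-OCT4 against OCT4, from 13 to 19 and 9 to 12 in EWS-OCT4 against J1, and from 17 to 21 and 13 to 15 in OCT4 against J1. Under the 18 alternatives without the replicate block, 24 of 27, 18 of 27 and 28 of 35 member calls held every time, 18 calls were lost in at least 1 alternative, 1 turned and 12 were gained in at least 1. With each chromosome centred on its own median, Cbx2 in EWS-OCT4 against J1 turned to 0.185 (log2) and Mtf2 in OCT4 against J1, not called otherwise, to -0.19. The medians subtracted (-0.46 for chromosome 11 and 0.15 for chromosome 5) had the same sign as the uncentred changes and were larger in size. Leaving out single libraries turned 4 paralog ratios, with differences from -0.0555 to 0.0724 for Rbbp4 to Rbbp7 (EWS-OCT4 against J1), -0.0975 to 0.0741 for Rybp to Yaf2 (EWS-OCT4 against OCT4), -0.0112 to 0.215 for Kmt2a to Kmt2b (OCT4 against J1, turned without J1 library 2) and -0.0224 to 0.222 for Kmt2c to Kmt2d (EWS-OCT4 against J1, turned without J1 library 2); the cause was not tested. With the replicate number as a block, the member counts were 14 and 15, 19 and 11, and 21 and 15. Libraries share a number only: the correlation of same-numbered deviations ran from -0.04 to 0.28, and 4 of 6 libraries in EWS-OCT4 against OCT4, 2 of 6 in EWS-OCT4 against J1 and 4 of 6 in OCT4 against J1 correlated best with their own number. Cbx8, Bmi1, Ring1, Phf1, Phf19 and Pcgf1 had the fewest counts, and smaller changes in them were harder to detect.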
